A study of Homo sapiens with 8 samples.

Results

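The PGC-1 family of coactivators and the nuclear-encoded factors that transcribe and copy mitochondrial DNA were followed as 10 genes, taken by symbol from a count table of 23368 gene symbols. They were the coactivators PPARGC1A (PGC-1α), PPARGC1B (PGC-1β) and PPRC1 (PRC), the transcription factors NRF1 and GABPA, the mitochondrial transcription factors TFAM, TFB1M and TFB2M, the mitochondrial RNA polymerase POLRMT and the catalytic subunit of the mitochondrial DNA polymerase, POLG. All 10 had a row and all 10 passed the filter on low counts that left 13395 genes to test. The cells were MDA-MB-231, a human breast cancer line that lacks estrogen and progesterone receptors. They received 1 of 3 small interfering RNAs against ESRRA (siE1, siE2 or siE3) or a control siRNA (siC), with INTERFERin as the transfection reagent in every group, and each group had 2 libraries. ESRRA encodes ERRα (estrogen-related receptor α), an orphan nuclear receptor, so the comparison asks how these factors stood once ERRα mRNA had been lowered. No label gives the siRNA sequences, the time after transfection or whether replicates were separate cultures. The p-values therefore reflect only how far these particular libraries scatter, and that scatter may be technical.

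ERRα has no known hormone in its pocket and is switched on mainly by PGC-1 coactivators, which bind it and other factors and recruit the transcription machinery. NRF1 and GABP, also called NRF2, bind the promoters of many nuclear genes for respiration and for the mitochondrial gene expression apparatus, TFAM among them. Inside mitochondria TFAM packages and bends mitochondrial DNA, TFB2M helps POLRMT to open the promoter, TFB1M methylates the ribosomal RNA of the small mitochondrial subunit, and POLG copies the genome.

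Total counts ran from 21835995 to 25880548 a library, and the chi-square per degree of freedom was 3.11 to 5.12 within an siRNA and 40.6 to 75.1 between siRNAs. ESRRA had 10.4 ± 0.113 CPM (TMM-scaled counts relative to library size) with siE1, 8.06 ± 1.14 with siE2 and 8.43 ± 0.171 with siE3, against 63.9 ± 1.31 with siC (mean ± SD, n = 2 libraries, as in every mean below). The mesenchymal marker VIM lay between 3165 and 4058 CPM in all libraries and was lower with siE2 (-0.19, edgeR adjusted p = 4.3e-04). AXL was higher with siE1, siE2 and siE3, at 0.43, 0.65 and 0.27 (edgeR adjusted p = 3.0e-06, 2.5e-08 and 3.85e-04). CD44 was lower with siE1 (-0.24, edgeR adjusted p = 1.2e-04) and higher with siE2 (0.20, edgeR adjusted p = 4.25e-04). The estrogen and progesterone receptor genes ESR1 and PGR had 0 or 1 count in each library and CDH1 had 0 to 3. ERBB2 stood at 52.0 to 67.1 CPM, higher with siE2 (0.22, edgeR adjusted p = 0.0074), and EPCAM had 229 to 297 counts. The leukocyte marker PTPRC and the fibroblast markers DCN and LUM had 0 to 2 counts. CD68, a macrophage marker that tumour lines can also express, stood at 290 to 432 CPM in the ESRRA siRNA libraries, against 214 and 226 CPM with siC, and was higher with siE1, siE2 and siE3 by 0.95, 0.41 and 0.56 (edgeR adjusted p = 2.0e-10, 1.2e-06 and 9.1e-08). The endothelial marker PECAM1 had 3 to 16 counts in the ESRRA siRNA libraries, against 3 and 3 with siC, and passed with siE2 (2.34, edgeR adjusted p = 0.0031), while VWF had 1 to 10 counts, against 2 and 6 with siC. The part of these markers in the results below was not tested. The 15 genes of the mitochondrial genome that were looked for by symbol, which these factors act on, had no row in the table and were not analysed here.

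At the control level the 10 genes spanned a wide range. Per kilobase of exon, on a CPM per kilobase scale, TFAM was highest with siC at 47.2, followed by PPRC1 at 26.9, TFB2M at 20.9, POLG at 20, TFB1M at 13.0, POLRMT at 9.93, NRF1 at 7.79, GABPA at 3.07, PPARGC1B at 1.5 and PPARGC1A at 0.475. PPRC1 therefore supplied most of the PGC-1 family reads, with 80.2% to 83.5% of the counts of the 3 coactivators in the 6 ESRRA siRNA libraries and 86.3% and 86.5% in the siC libraries. Exon lengths came from GENCODE v29, an annotation other than the one used for counting, so the order of near neighbours such as TFB2M and POLG is not settled by it.

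**Figure D1:**
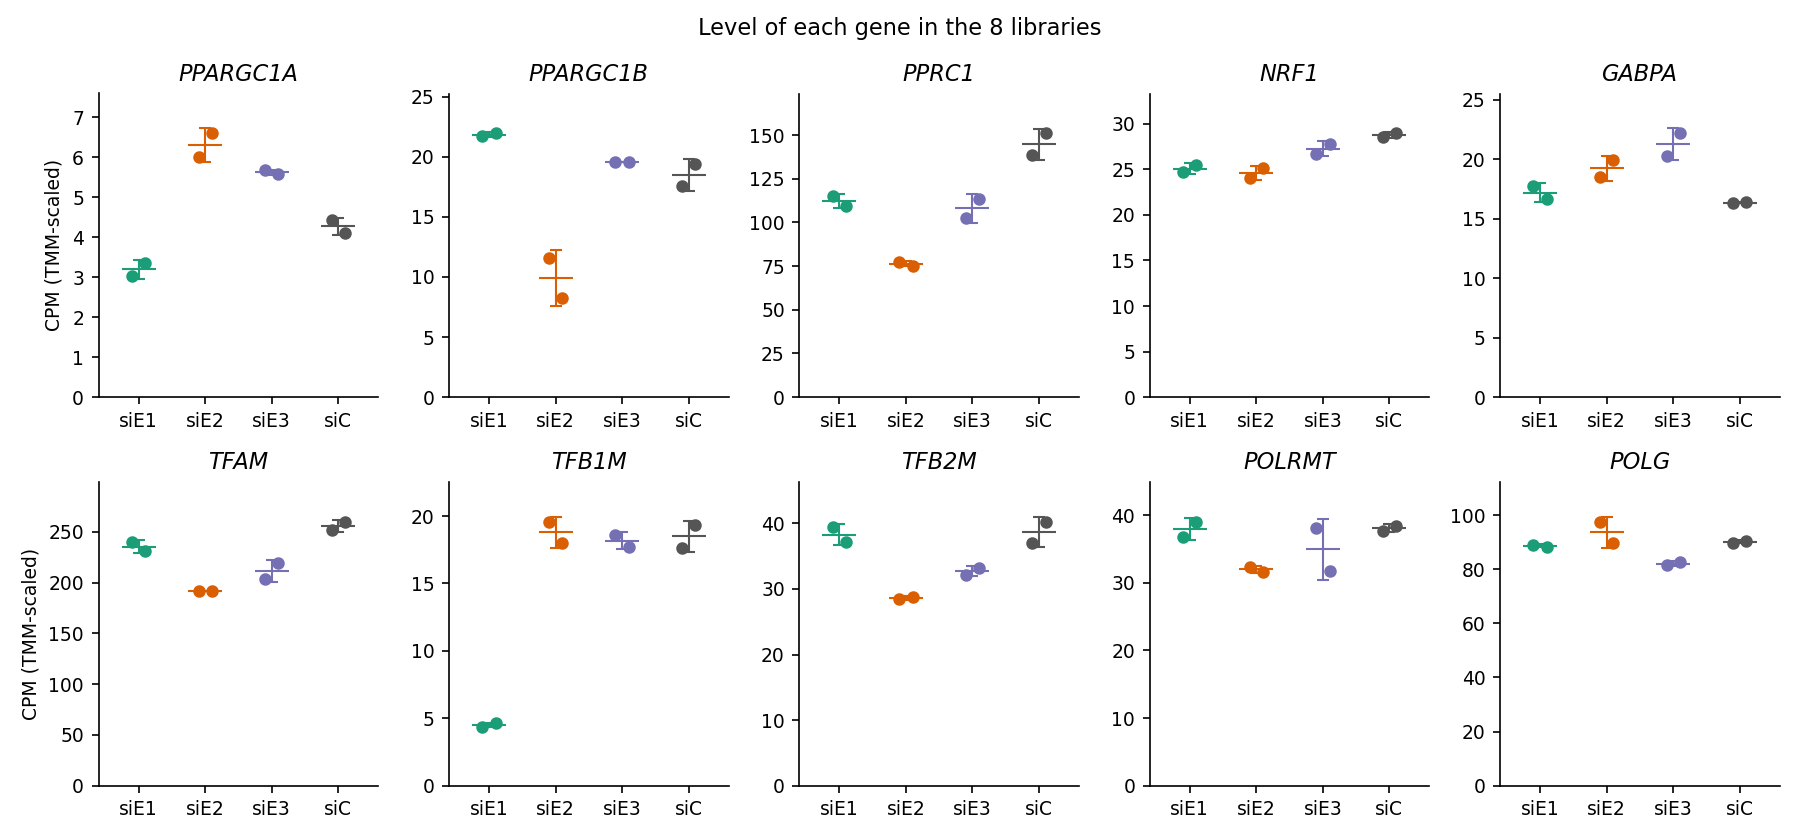
Level of each of the 10 genes in CPM (linear axis from 0) in the 2 libraries of siE1, siE2, siE3 and siC; points are libraries, the horizontal dash is the mean and the bar its SD. TFB1M is low with siE1 (4.51 ± 0.176 CPM) and close to the siC level of 18.5 ± 1.17 CPM with siE2 and siE3, PPARGC1B is low with siE2, and PPRC1 is below siC with all 3 siRNAs.

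Set against siC, 0 of the 10 genes rose and 5 fell with siE1, 2 rose and 6 fell with siE2, and 2 rose and 3 fell with siE3 (edgeR quasi-likelihood test, adjusted p below 0.05). The share of all tested genes called lower was 25.8% with siE1, 28.5% with siE2 and 20.8% with siE3, and the share called higher was 24.5%, 27.9% and 21.3% in the same order. In either direction 50.3%, 56.4% and 42.1% of all tested genes were called, so a call by itself is common in these data. PPRC1 and TFAM were lower with each of the 3 siRNAs, 2 of 10 genes, where 7.42% of all tested genes were. The place of TFAM there rests on its siE1 call, which was lost under 9 of 17 alternatives. No gene of the 10 was higher with each of the 3, where 8.73% of all tested genes were. The median log2 fold change of the 10 was -0.07 with siE1, -0.24 with siE2 and -0.10 with siE3, beside medians of -0.01, 0.01 and 0.00 over all tested genes. The 3 comparisons share the siC libraries. In the authors' deposited table, adjusted p-values below 0.05 were held by 2 of the 10 genes with siE1, 6 with siE2 and 3 with siE3, and each of these calls was also made here. With 5, 8 and 5 genes called here, the remaining calls were not made by the authors. TFAM with siE1 was among these (authors' adjusted p = 0.12).

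**Figure D2:**
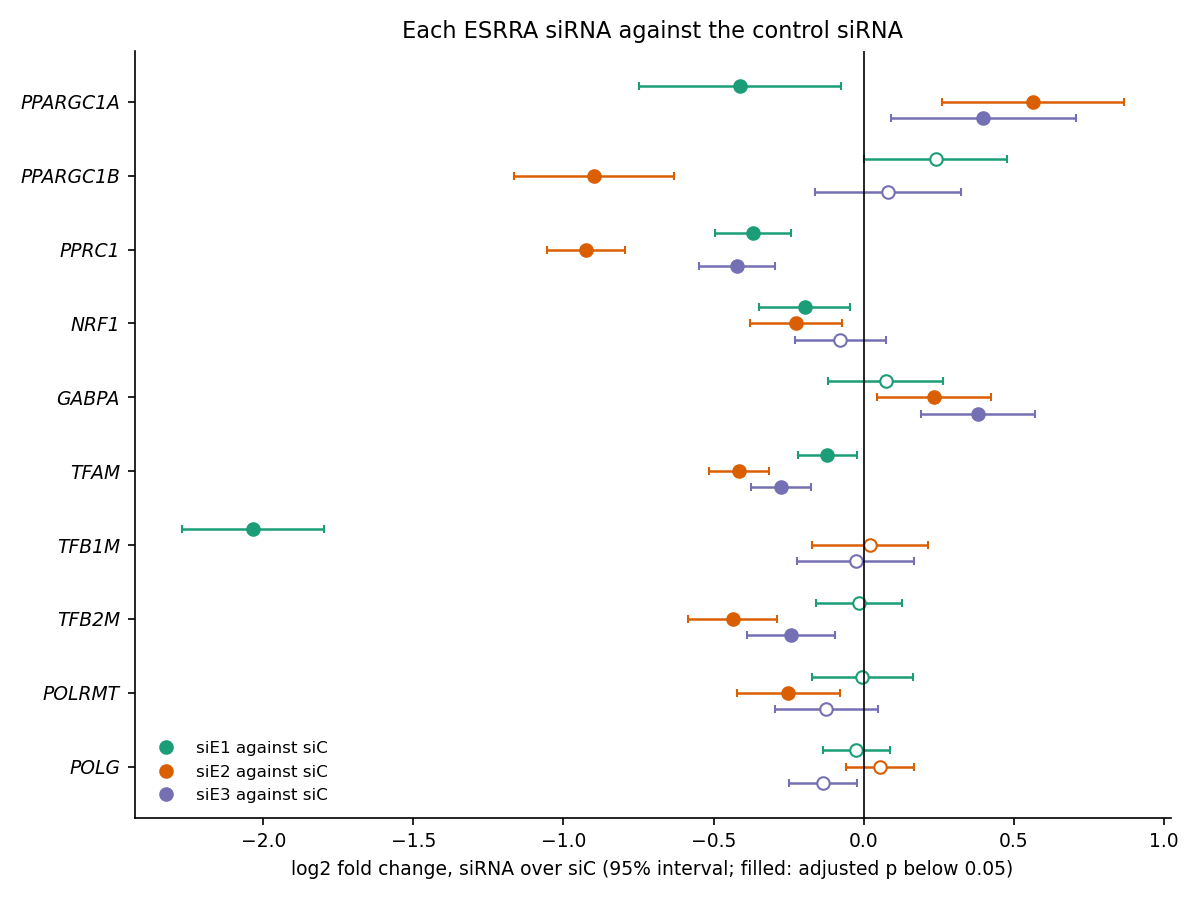
Log2 fold change of each gene with siE1, siE2 and siE3 over siC (x axis), with 95% intervals; filled points passed an adjusted p of 0.05 and open points did not. The point farthest from 0 is TFB1M with siE1 at -2.03, PPRC1 and TFAM are filled and left of 0 for each siRNA, and PPARGC1A lies left of 0 with siE1 and right of 0 with siE2 and siE3.

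PPRC1, the most abundant of the 3 coactivators here and known as a growth-regulated member of the family, fell with every ESRRA siRNA. Its levels were 115 and 109 CPM in the siE1 libraries, 77.4 and 75.3 CPM with siE2, and 102 and 114 CPM with siE3, against 138 and 151 CPM with siC. Every ESRRA siRNA library lay below both siC libraries, and the siE2 libraries lay below all others. The log2 fold change was -0.37 with siE1 (SE 0.0591, edgeR adjusted p = 9.4e-05), -0.92 with siE2 (SE 0.0608, edgeR adjusted p = 7.0e-09) and -0.42 with siE3 (SE 0.0594, edgeR adjusted p = 3.8e-05), so that 77.4%, 52.7% and 74.6% of the siC mean remained. The fall was deeper with siE2 than with either other siRNA. PPRC1 was higher with siE1 than with siE2 by 0.55 (SE 0.0613, edgeR adjusted p = 1.7e-06), and lower with siE2 than with siE3, at -0.50 (SE 0.0616, edgeR adjusted p = 7.8e-06). Between siE1 and siE3 the difference was 0.05, with a 95% interval of -0.07 to 0.18 (edgeR adjusted p = 0.49).

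PPARGC1B, a coactivator of ERRα in mitochondrial biogenesis, fell with siE2 and did not pass the test with the other siRNAs. It stood at 21.7 and 22 CPM with siE1, 11.6 and 8.24 CPM with siE2, and 19.6 and 19.6 CPM with siE3, against 17.5 and 19.4 CPM with siC. The siE2 libraries were the lowest of the 8, and those of siE1 and siE3 lay above both siC libraries. With siE2 the log2 fold change was -0.90 (SE 0.124, edgeR adjusted p = 1.8e-05), or 53.7% of the siC mean. With siE1 it was 0.24 (SE 0.112, edgeR adjusted p = 0.087), a value that passed when siE2 replicate 1 (adjusted p = 0.030) or siE2 replicate 2 (adjusted p = 0.035) was left out or when the 2 groups were fitted alone (adjusted p = 0.029). With siE3 it was 0.08, with a 95% interval of -0.16 to 0.32. PPARGC1B was higher with siE1 than with siE2 by 1.14 (SE 0.121, edgeR adjusted p = 1.2e-06) and lower with siE2 than with siE3, at -0.98 (SE 0.124, edgeR adjusted p = 1.0e-05). In the average of the 3 siRNAs it did not pass (-0.19, edgeR adjusted p = 0.10), but it did without siE2 replicate 1 (-0.28, adjusted p = 0.0092).

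PPARGC1A, the cold- and exercise-induced founder of the family, was the rarest of the 10 genes and moved in opposite directions under different siRNAs. It had 67 and 87 counts under siE1, 139 and 153 under siE2, and 124 and 129 under siE3, against 97 and 96 with siC. Those counts correspond to 3.19 ± 0.234, 6.31 ± 0.419 and 5.62 ± 0.0619 CPM with siE1, siE2 and siE3, against 4.27 ± 0.222 CPM with siC. Both siE1 libraries lay below the siC pair, and all siE2 and siE3 libraries lay above it. With siE2 it rose by 0.56 on the log2 scale (SE 0.142, edgeR adjusted p = 0.0032), a call kept under all 16 alternatives tried. With siE1 it was at -0.41 (SE 0.158, edgeR adjusted p = 0.040) and with siE3 at 0.40 (SE 0.145, edgeR adjusted p = 0.037), and these 2 calls were fragile. Both were lost with the DESeq2 Wald test (adjusted p = 0.16 with siE1 and 0.175 with siE3). Both were also lost with a replicate block (edgeR adjusted p = 0.0531 and 0.0535) and with only the groups compared (0.0593 and 0.0531). With limma-voom the siE1 call was lost (adjusted p = 0.0516). The siE1 call was lost without siC replicate 1 (adjusted p = 0.16), siC replicate 2 (0.073), siE1 replicate 1 (0.17), siE1 replicate 2 (0.071) or siE2 replicate 1 (0.050). The siE3 call was lost without siC replicate 1 (adjusted p = 0.074), siC replicate 2 (0.18), siE3 replicate 1 (0.11) or siE3 replicate 2 (0.0925). The difference between siRNAs was firmer, since PPARGC1A was lower with siE1 than with siE2 by a log2 value of -0.98 (SE 0.147, edgeR adjusted p = 4.1e-05) and than with siE3 by -0.81 (SE 0.151, edgeR adjusted p = 4.0e-04), and both calls were kept under all 16 alternatives. Within a library the ratio of PPARGC1B to PPARGC1A counts was 7.16 and 6.54 under siE1, 1.93 and 1.25 under siE2 and 3.45 and 3.50 under siE3, against 3.96 and 4.72 with siC.

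**Figure D3:**
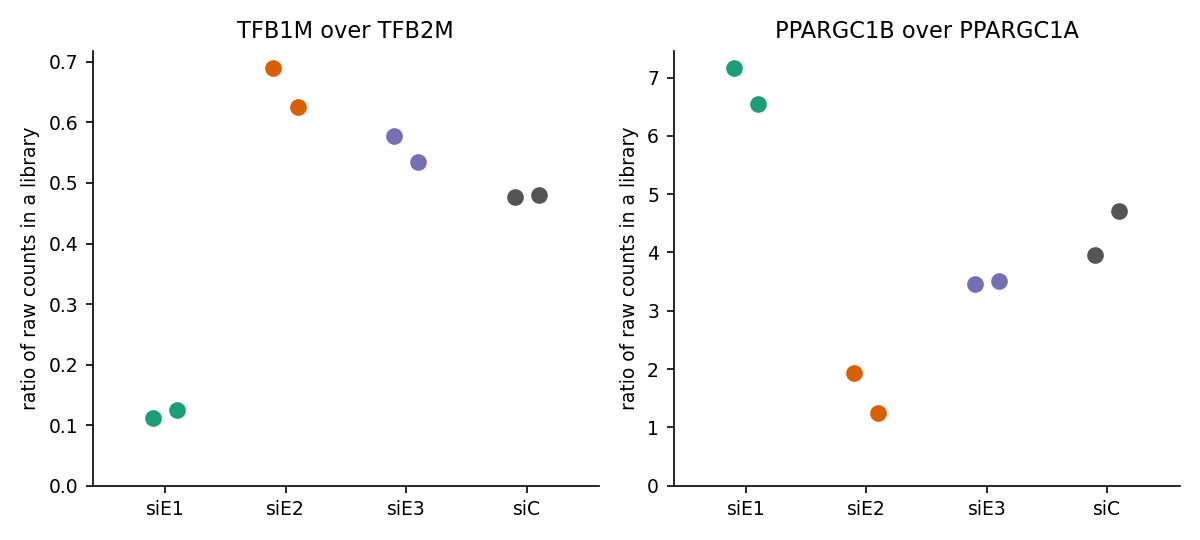
Ratio of raw counts within each library (y axis from 0) for TFB1M over TFB2M and for PPARGC1B over PPARGC1A; points are the 2 libraries of siE1, siE2, siE3 and siC. The TFB1M to TFB2M ratio is 0.111 and 0.125 with siE1 and 0.477 and 0.480 with siC, and the coactivator ratio is highest with siE1 and lowest with siE2.

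GABPA, the DNA-binding ETS subunit of GABP, was the only gene of the 10 called higher in the average of the 3 siRNAs. It had 17.8 and 16.6 CPM with siE1, 18.5 and 19.9 CPM with siE2, and 20.3 and 22.2 CPM with siE3, against 16.3 and 16.4 CPM with siC. All 6 ESRRA siRNA libraries lay above the siC pair. It rose by 0.38 with siE3 (SE 0.0885, edgeR adjusted p = 0.0028) and by 0.23 with siE2 (0.235 before rounding, SE 0.0892, edgeR adjusted p = 0.035), while siE1 gave 0.07 with a 95% interval of -0.12 to 0.26. The siE3 call was kept under all 16 alternatives. The siE2 call was lost without siC replicate 1 (adjusted p = 0.11), siC replicate 2 (0.11) or siE2 replicate 2 (0.20), and with the DESeq2 Wald test (0.11). The average over the siRNAs was 0.23 (SE 0.0737, edgeR adjusted p = 0.017) and did not pass with the DESeq2 Wald test (adjusted p = 0.059). Nor did this average pass without siC replicate 1 (log2 fold change 0.22) or siC replicate 2 (log2 fold change 0.23). GABPA was lower with siE1 than with siE3 by -0.31 (SE 0.0873, edgeR adjusted p = 0.0090), which did not pass without siE1 replicate 2 (0.078) or siE3 replicate 2 (0.079). In GENCODE v29, 7.77% of the exon bases of GABPA overlap exons of ATP5J on the opposite strand, and the strand setting of the counting was not given in the sources used here. ATP5J was at 0.08 with siE1, -0.09 with siE2 and 0.23 with siE3, the last called (edgeR adjusted p = 0.0059).

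GABPB1, which encodes the activating β subunit that GABPA needs, went the other way. Its mean was 67.9 ± 0.773 CPM with siE1, 45.5 ± 1.35 CPM with siE2 and 63.5 ± 5.64 CPM with siE3, against 81.7 ± 5.54 CPM with siC. It fell by 0.27, 0.84 and 0.36 on the log2 scale with siE1, siE2 and siE3 (edgeR adjusted p = 0.0035, 7.3e-08 and 4.6e-04). GABPB1 was singled out after its values had been seen. The other β subunit gene, GABPB2, did not pass with any siRNA, at 0.20, 0.07 and -0.21.

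NRF1, the other activator of nuclear respiratory genes, stood at 87.2%, 85.6% and 94.7% of its siC mean with siE1, siE2 and siE3. It stood at 24.7 and 25.5 CPM with siE1, 24.0 and 25.2 CPM with siE2, and 26.7 and 27.8 CPM with siE3, against 28.5 and 29 CPM with siC. All 6 ESRRA siRNA libraries lay below both siC libraries, though by little. It fell by 0.20 with siE1 (SE 0.0712, edgeR adjusted p = 0.031) and by 0.22 with siE2 (SE 0.0716, edgeR adjusted p = 0.014), and with siE3 it was at -0.08 with a 95% interval of -0.23 to 0.07. The siE1 call was lost without siC replicate 1 (adjusted p = 0.077), siC replicate 2 (0.12), siE1 replicate 1 (0.13) or siE1 replicate 2 (0.071), and the siE2 call without siC replicate 2 (0.069) or siE2 replicate 1 (0.098). The DESeq2 Wald test called neither (adjusted p = 0.12 with siE1 and 0.062 with siE2). No pair of siRNAs differed in NRF1 by the test (edgeR adjusted p = 0.76, 0.19 and 0.11 for siE1 against siE2, siE1 against siE3 and siE2 against siE3).

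TFAM, the main packaging protein of mitochondrial DNA and a textbook target of NRF1 and GABP, was the most abundant of the 10 and fell with each ESRRA siRNA. It had 239.6 and 231 CPM with siE1, 192 and 192 CPM with siE2, and 203 and 219 CPM with siE3, against 251 and 260.0 CPM with siC. Every ESRRA siRNA library was below both siC libraries, and the levels ran, from low to high, in the order siE2, siE3, siE1 and siC. The log2 fold change was -0.41 with siE2 (SE 0.0467, edgeR adjusted p = 2.2e-06) and -0.28 with siE3 (SE 0.0466, edgeR adjusted p = 2.1e-04), so that 75.0% and 82.6% of the siC mean remained. Both calls were kept under all 17 alternatives tried. With siE1 91.9% remained, at -0.12 (SE 0.0463, edgeR adjusted p = 0.039), and this call was lost without siC replicate 1 (adjusted p = 0.054), siC replicate 2 (0.20), siE1 replicate 1 (0.056), siE1 replicate 2 (0.22), siE2 replicate 1 (0.064) or siE2 replicate 2 (0.053). That siE1 call was also lost with the stricter filter (edgeR adjusted p = 0.057), the replicate block (edgeR adjusted p = 0.062) and the DESeq2 Wald test (adjusted p = 0.075). TFAM was higher with siE1 than with siE2 by 0.29 (SE 0.0467, edgeR adjusted p = 7.2e-05). It was higher with siE1 than with siE3 by 0.15 (edgeR adjusted p = 0.013), which did not pass without siE1 replicate 1 (0.11) or siE3 replicate 1 (0.11). The difference of -0.14 between siE2 and siE3 (edgeR adjusted p = 0.024) did not pass without siE2 replicate 1 (0.082), siE2 replicate 2 (0.090) or siE3 replicate 2 (0.19).

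A processed copy of TFAM, TFAMP1, had its own row, with 11.8 and 12.6 CPM in the siE1 libraries, 9.56 and 11.2 CPM with siE2 and 9.74 and 10.4 CPM with siE3, against 11.6 and 14.1 CPM with siC. The treatment of reads that match both is unknown. With the counts of both added together the log2 fold changes were -0.12, -0.41 and -0.28 for siE1, siE2 and siE3 and all 3 stayed called, a check added after the data had been seen.

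TFB1M, the methyltransferase of the small mitochondrial ribosomal RNA, showed the largest change of the 10 genes, and with siE1 alone among the siRNAs did it pass the test. It had 97 and 120 counts under siE1, 453 and 417 under siE2, and 407 and 410 under siE3, against 387 and 451 with siC. In CPM these were 4.38 and 4.63 under siE1, 19.6 and 18.0 under siE2 and 18.6 and 17.7 under siE3, against 17.7 and 19.3 with siC. The siE1 libraries stood far below the other 6, which overlapped one another. With siE1 24.4% of the siC mean remained and the log2 fold change reached -2.03 (SE 0.111, edgeR adjusted p = 1.3e-09). With siE2 the log2 fold change was 0.02, with a 95% interval of -0.17 to 0.21, and with siE3 it was -0.03, with an interval of -0.22 to 0.17. The difference itself was tested and amounted to -2.06 for siE1 against siE2 (SE 0.111, edgeR adjusted p = 7.5e-10) and -2.01 for siE1 against siE3 (SE 0.112, edgeR adjusted p = 1.9e-09), while siE2 and siE3 differed by 0.05 with an interval of -0.14 to 0.24. ESRRA itself was higher with siE1 than with siE2, by 0.37 on the log2 scale (SE 0.108, edgeR adjusted p = 0.0092), and than with siE3, by 0.30 (SE 0.108, edgeR adjusted p = 0.031). The average over the 3 siRNAs, -0.68 (edgeR adjusted p = 3.6e-06), lies far from the value of each siRNA.

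In GENCODE v29, 15.1% of the exon bases of TFB1M overlap exons of TIAM2 on the opposite strand. TIAM2 had 116 and 168 counts under siE1, 249 and 220 under siE2 and 193 and 203 under siE3, against 88 and 99 with siC. TIAM2 was higher than with siC under each siRNA, by 0.51, 1.29 and 1.09 (edgeR adjusted p = 0.011, 1.5e-06 and 2.1e-05). Between siRNAs it was lower with siE1 than with siE2, at -0.78 (edgeR adjusted p = 1.1e-04), and than with siE3, at -0.58 (edgeR adjusted p = 0.0023), the direction that TFB1M also had there. How much reads from the shared bases add to either gene was not tested.

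TFB2M, the partner of POLRMT at mitochondrial promoters and a relative of TFB1M, showed another order of siRNAs. It stood at 39.4 and 37.1 CPM with siE1, 28.4 and 28.8 CPM with siE2, and 32.2 and 33.2 CPM with siE3, against 37.1 and 40.3 CPM with siC. The siE2 libraries were lowest, the siE3 libraries came next and those of siE1 overlapped siC. It fell by 0.44 with siE2 (SE 0.0695, edgeR adjusted p = 7.1e-05), a call kept under all 16 alternatives, and by 0.24 with siE3 (SE 0.0687, edgeR adjusted p = 0.010), a call lost without siC replicate 2 (adjusted p = 0.12) or siE3 replicate 1 (0.0569). With siE1 the value was -0.02, with a 95% interval of -0.16 to 0.13. TFB2M was higher with siE1 than with siE2 by 0.42 (SE 0.0692, edgeR adjusted p = 9.7e-05). It was higher with siE1 than with siE3 by 0.23 (edgeR adjusted p = 0.013), which did not pass without siE1 replicate 1 (0.11) or siE3 replicate 1 (0.069). The difference of -0.19 between siE2 and siE3 (edgeR adjusted p = 0.034) did not pass without any 1 of these 4 libraries (adjusted p = 0.053 to 0.13). The ratio of TFB1M to TFB2M counts within a library was 0.111 and 0.125 under siE1, 0.690 and 0.625 under siE2 and 0.578 and 0.534 under siE3, against 0.477 and 0.480 with siC.

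POLRMT, the polymerase that all mitochondrial transcripts depend on, changed little. It had 36.8 and 39.1 CPM with siE1, 32.4 and 31.6 CPM with siE2, and 38.2 and 31.8 CPM with siE3, against 37.7 and 38.5 CPM with siC. Only the siE2 libraries both lay below siC, and the 2 siE3 libraries lay about as far apart as the siE2 and siC means. It fell by 0.25 with siE2 (SE 0.0806, edgeR adjusted p = 0.015), which did not pass without siC replicate 2 (0.067) or siE2 replicate 2 (0.074). It was at -0.01 with siE1 (95% interval -0.17 to 0.16) and at -0.12 with siE3 (edgeR adjusted p = 0.23), where it passed without siE3 replicate 1 (-0.26, adjusted p = 0.021). POLRMT was higher with siE1 than with siE2 by 0.25 (edgeR adjusted p = 0.016), which did not pass without siE1 replicate 2 (0.11) or siE2 replicate 2 (0.082). Against siE3 the test called neither siE1 (0.12, edgeR adjusted p = 0.23) nor siE2 (-0.13, edgeR adjusted p = 0.21), but without siE3 replicate 1 the first passed (0.25, adjusted p = 0.020) and without siE3 replicate 2 the second did (-0.26, adjusted p = 0.019).

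POLG, the mitochondrial DNA polymerase, was not called with any siRNA against siC. It stood at 89.0 and 88.4 CPM with siE1, 97.6 and 89.6 CPM with siE2, and 81.4 and 82.7 CPM with siE3, against 89.9 and 90.5 CPM with siC. Its means were 98.3%, 104% and 91.0% of the siC mean with siE1, siE2 and siE3, the siE3 libraries being lowest. With siE3 the log2 fold change of -0.14 was just outside the threshold (SE 0.0532, edgeR adjusted p = 0.051) and passed without siE2 replicate 2 (0.047), with DESeq2 size factors (0.0465) and with library size only (0.0469). With siE1 the 95% interval was -0.14 to 0.09 and with siE2 -0.06 to 0.17. POLG was higher with siE2 than with siE3 by 0.19 (SE 0.0530, edgeR adjusted p = 0.0078), which did not pass without siE2 replicate 1 (0.12, adjusted p = 0.14). Exons of FANCI on the opposite strand cover 9.55% of its exon bases in GENCODE v29, and FANCI was at -0.14, -0.52 and 0.00 with siE1, siE2 and siE3.

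**Figure D4:**
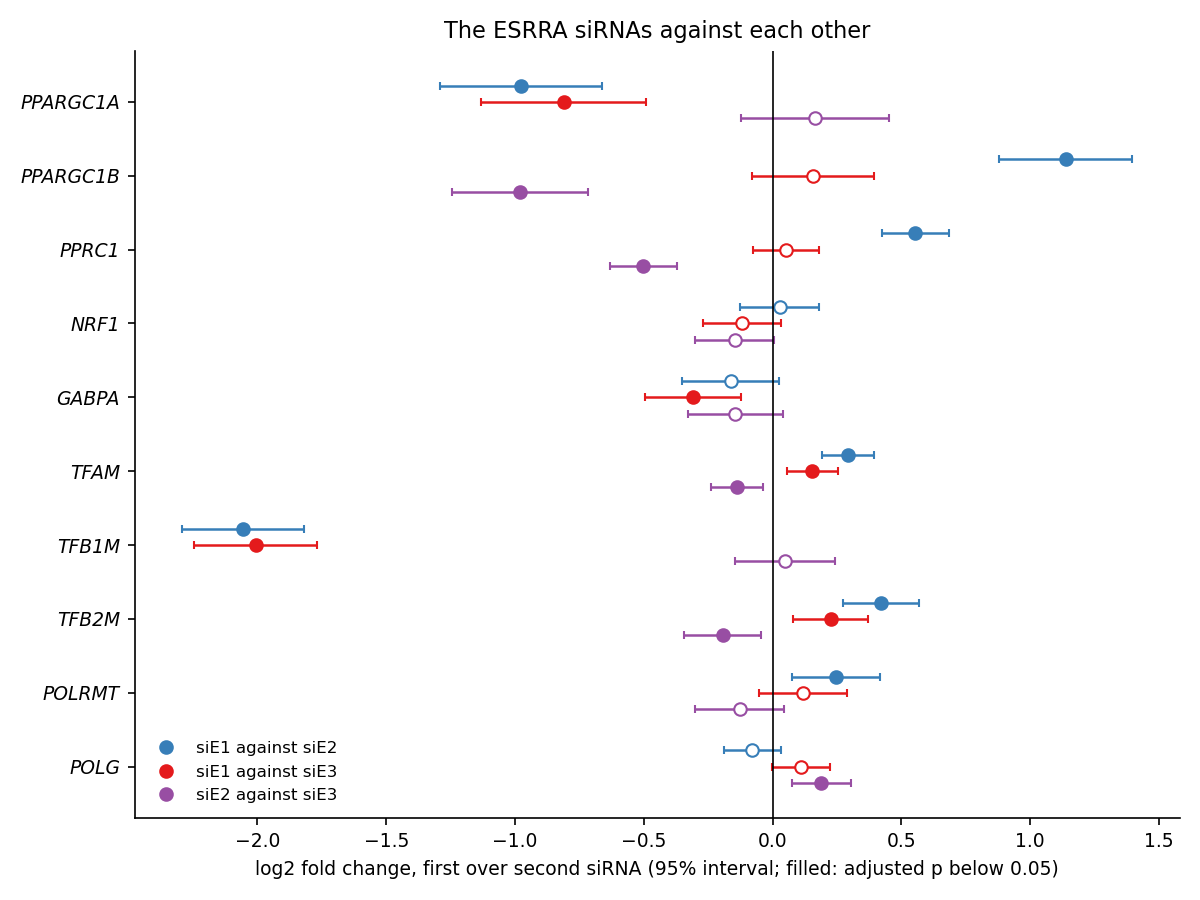
Log2 difference of each gene between 2 ESRRA siRNAs (x axis, first over second) with 95% intervals; filled points passed an adjusted p of 0.05. TFB1M lies near -2 whenever siE1 is compared, PPARGC1B lies at 1.14 for siE1 against siE2 and at -0.98 for siE2 against siE3, and PPARGC1A lies at -0.98 and -0.81 for siE1 against the other siRNAs.

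Compared with each other, the siRNAs differed in many of these genes, as they did in many of all tested genes. Between siE1 and siE2, 5 of the 10 genes were higher and 2 lower with siE1, where 28.5% and 28.6% of all tested genes were (57.1% in either direction). Between siE1 and siE3, 2 were higher and 3 lower with siE1, where 23.3% and 25.4% of all tested genes were (48.7% in either direction). Between siE2 and siE3, 1 was higher and 4 were lower with siE2, where 23.4% and 25% of all tested genes were (48.5% in either direction). In the average of the 3 siRNAs against siC, 1 gene rose and 5 fell, where 23.4% and 27.7% of all tested genes did (51.1% in either direction). The 5 were PPRC1, TFAM, TFB1M, TFB2M and NRF1, and of these NRF1 did not pass with the DESeq2 Wald test (adjusted p = 0.099). Nor did NRF1 pass without siC replicate 1 (-0.18), siC replicate 2 (-0.16) or siE2 replicate 1 (-0.15). TFB2M did not pass without siC replicate 2 (-0.17). POLRMT passed without siE3 replicate 1 (-0.17, adjusted p = 0.016).

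The group means spread over 2.04 on the log2 CPM scale for TFB1M, 1.152 for PPARGC1B, 0.96 for PPARGC1A and 0.92 for PPRC1, and over 0.19 to 0.43 for the other 6 genes.

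The RefSeq promoter table (GRCh38.p14, 250 bases before to 50 after a start) held 10 windows for 9 of the 10 genes, NRF1 having none there, and a pair for PPARGC1A. They were searched on both strands for the ERR element TNAAGGTCA, where N is any base, and for the NRF1 motif, which is GCGCA, any base and then GCGC. The third search was for an ETS motif of GABP with 8 bases, CCGGAAGT. Only exact matches were counted, so a window without one may still hold a similar site. The ERR element was in 0 of the 10 windows and in 0.951% of all 35116 promoters. The NRF1 motif was in 3 of the 10 windows (TFAM, TFB1M and POLRMT) and in 5.78% of all promoters. The ETS motif was in 2 windows (GABPA and POLRMT) and in 4.14% of all promoters. The 3 windows with the NRF1 motif are shown because they share a motif while their genes changed differently: TFB1M with siE1, TFAM with each siRNA and POLRMT with siE2. A match is a description of letters and not a bound site. Capitals mark the NRF1 motif, which in TFAM lies on the other strand and so reads as its reverse complement, GCGCCTGCGC. In POLRMT they also mark the ETS motif, likewise on the other strand, as ACTTCCGG. The POLRMT capitals nearest the start are 2 overlapping NRF1 matches. The NRF1 match begins 132 bases before the start in TFB1M, 63 in TFAM, and 24 and 18 in POLRMT.
TFB1M, chr6:155314435-155314734, minus strand: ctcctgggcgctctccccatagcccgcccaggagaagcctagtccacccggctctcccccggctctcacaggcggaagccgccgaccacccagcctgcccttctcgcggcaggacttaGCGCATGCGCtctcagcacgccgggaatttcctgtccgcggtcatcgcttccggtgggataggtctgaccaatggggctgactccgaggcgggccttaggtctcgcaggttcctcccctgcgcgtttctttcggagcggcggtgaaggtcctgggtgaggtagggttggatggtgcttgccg
TFAM, chr10:58385160-58385459, plus strand: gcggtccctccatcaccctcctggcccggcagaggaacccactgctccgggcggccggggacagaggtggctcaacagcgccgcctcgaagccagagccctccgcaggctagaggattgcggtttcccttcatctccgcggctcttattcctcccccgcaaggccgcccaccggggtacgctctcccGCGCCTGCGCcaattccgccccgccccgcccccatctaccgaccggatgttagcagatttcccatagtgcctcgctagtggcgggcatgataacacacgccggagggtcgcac
POLRMT, chr19:633488-633787, minus strand: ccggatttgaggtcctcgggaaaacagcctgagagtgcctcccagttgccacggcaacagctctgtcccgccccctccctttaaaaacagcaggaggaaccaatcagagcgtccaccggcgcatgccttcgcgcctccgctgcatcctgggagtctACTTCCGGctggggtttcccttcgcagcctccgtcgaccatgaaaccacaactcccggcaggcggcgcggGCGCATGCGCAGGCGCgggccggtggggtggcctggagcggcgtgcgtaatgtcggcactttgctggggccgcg

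The genes whose levels followed the 3 most variable factors most closely were found by Pearson correlation of log2 CPM over the 8 libraries among 10502 genes with a mean of at least 5 CPM. With 4 siRNAs and 8 shared libraries such values are high for many genes and are given as a description. TFB1M was followed most closely by DTD1 (r = 0.999), USP5 (r = 0.998, 0.9975 before rounding) and POLR2E (r = 0.997). These 3 genes were also low with siE1, with DTD1 standing at 43.3 and 44.0 CPM with siE1, against 83.4 and 88.2 CPM with siC. Closest to PPARGC1B were WBP4 (r = 0.986), SLC35E3 (r = 0.978) and ERH (r = 0.978), and closest to PPARGC1A were PNPLA4 (r = 0.995), ZFAND4 (r = 0.993, 0.9925 before rounding) and HSD17B4 (r = 0.990).

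Around these factors 5 lists of genes from textbook function were described by counts, with no set test. Of 38 genes for transcription and RNA handling inside mitochondria, 0 rose and 23 fell in the average of the 3 siRNAs, where 23.4% of all tested genes rose and 27.7% fell, and the list median was -0.20 beside -0.01 over all tested genes. By siRNA 18, 24 and 20 of the 38 fell and 2, 0 and 1 rose with siE1, siE2 and siE3. Of all tested genes 25.8%, 28.5% and 20.8% fell and 24.5%, 27.9% and 21.3% rose in the same order. LRPPRC, which stabilises mitochondrial mRNAs, was at 444 ± 3.55 CPM with siE1, 313 ± 2.62 with siE2 and 422 ± 37.3 with siE3, against 571 ± 8.82 with siC. Its log2 fold changes were -0.36, -0.87 and -0.44 and its average was -0.56 (SE 0.0403, edgeR adjusted p = 3.2e-08). PTCD3, a protein of the small mitochondrial ribosomal subunit, had an average of -0.60 (edgeR adjusted p = 2.3e-08), and TBRG4, a FASTK-family RNA-binding protein, one of -0.45 (edgeR adjusted p = 2.1e-07).

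The 22 mitochondrial translation factors had 0 genes called higher and 15 called lower in the average (median -0.19). Of all tested genes 23.4% were called higher and 27.7% lower there. With siE1, siE2 and siE3 10, 17 and 11 fell and 1, 2 and 0 rose. Of all tested genes 25.8%, 28.5% and 20.8% fell and 24.5%, 27.9% and 21.3% rose in the same order. The elongation factor GFM1 had an average of -0.62 (SE 0.0380, edgeR adjusted p = 5.2e-09), the recycling factor MRRF one of -0.56 (edgeR adjusted p = 7.0e-07), and ERAL1, a GTPase that helps to assemble the small mitochondrial subunit, one of -0.46 (edgeR adjusted p = 8.3e-07). ERAL1 stood at 74.2 ± 2.74, 71.0 ± 1.38 and 71.8 ± 5.0 CPM with siE1, siE2 and siE3, against 99.7 ± 2.24 CPM with siC, about the same level with each siRNA.

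Of 32 genes for the replication and upkeep of mitochondrial DNA, 8 were higher and 17 lower in the average (median -0.19). Of all tested genes 23.4% were higher and 27.7% lower there. With siE1, siE2 and siE3 7, 4 and 7 rose and 12, 17 and 13 fell. Of all tested genes 24.5%, 27.9% and 21.3% rose and 25.8%, 28.5% and 20.8% fell in the same order. The called genes with the smallest p in each direction are given here. TK2, the mitochondrial thymidine kinase, had 19.2 ± 2.51 CPM with siE1, 43.7 ± 1.56 with siE2 and 24.0 ± 1.19 with siE3, against 8.84 ± 0.863 with siC (average 1.62, edgeR adjusted p = 2.8e-09). DGUOK, the mitochondrial deoxyguanosine kinase, averaged 0.24 (edgeR adjusted p = 8.6e-05) and SLC25A36, a pyrimidine nucleotide carrier, 0.42 (edgeR adjusted p = 1.7e-06), although with siE2 alone neither passed. The uracil glycosylase UNG, which did not pass with siE1 (-0.13, edgeR adjusted p = 0.051), averaged -0.42, the nuclease and helicase DNA2 -0.53 and the succinyl-CoA ligase subunit SUCLG1 -0.30 (edgeR adjusted p = 7.5e-07, 4.5e-06 and 4.9e-06). UNG and DNA2 also act in the nucleus.

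Of 29 genes described elsewhere as NRF1 or GABP targets, 2 rose and 24 fell in the average (median -0.25). No gene of the 10 factors was counted among them, and 23.4% of all tested genes rose and 27.7% fell there. With siE1, siE2 and siE3 20, 23 and 10 fell and 1, 4 and 3 rose. Of all tested genes 25.8%, 28.5% and 20.8% fell and 24.5%, 27.9% and 21.3% rose in the same order. The leading genes differed between siRNAs. TOMM34, a cytosolic cochaperone of mitochondrial import, was at 187 ± 2.85 CPM with siE1, 115 ± 7.90 with siE2 and 310.2 ± 0.103 with siE3, against 311 ± 12.6 with siC, and COX4I1 of cytochrome c oxidase was at 109.8 ± 1.66, 206 ± 3.90 and 250.03 ± 5.02 CPM with siE1, siE2 and siE3, against 259 ± 9.05 CPM with siC. The ATP synthase subunit ATP5B fell with each siRNA (average -0.58, SE 0.0314, edgeR adjusted p = 1.7e-09), while SURF1, an assembly factor of cytochrome c oxidase, rose with each (average 0.65, edgeR adjusted p = 1.4e-05). The complex I subunit NDUFS8 averaged 0.18 (edgeR adjusted p = 0.0081), which did not pass without siC replicate 2 (0.074).

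The partners and regulators of PGC-1 and NRF factors, ESRRA left out, had 8 of 36 genes called higher and 15 called lower in the average (median -0.08), where 23.4% of all tested genes rose and 27.7% fell. With siE1, siE2 and siE3 3, 10 and 8 rose and 15, 13 and 14 fell. Of all tested genes 24.5%, 27.9% and 21.3% rose and 25.8%, 28.5% and 20.8% fell in the same order. PPARG, a nuclear receptor that binds PGC-1, had 51.0 ± 1.63 CPM with siE1, 115 ± 8.62 with siE2 and 65.7 ± 4.83 with siE3, against 45.5 ± 2.10 with siC (average 0.68, SE 0.0593, edgeR adjusted p = 2.2e-07), and with siE1 alone it did not pass. The coactivator NCOA2 averaged 0.59 and the cAMP-responsive factor CREB1, an activator of PPARGC1A, averaged 0.42 (edgeR adjusted p = 2.5e-07 and 3.6e-06), and CREB1 rose by 0.44, 0.44 and 0.39 with siE1, siE2 and siE3. The mediator subunit MED1, which PGC-1 proteins contact, averaged -0.54, the CREB coactivator CRTC3 -0.58 and MYBBP1A, a repressor of PGC-1α, -0.35 (edgeR adjusted p = 7.5e-08, 3.0e-07 and 6.5e-07). The siRNAs were far apart in MED1, at -0.21, -0.36 and -1.04 with siE1, siE2 and siE3, and in CRTC3, at -0.72, -0.16 and -0.86. ESRRB and ESRRG, the other ERR genes, had at most 2 counts in a library.

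**Figure D5:**
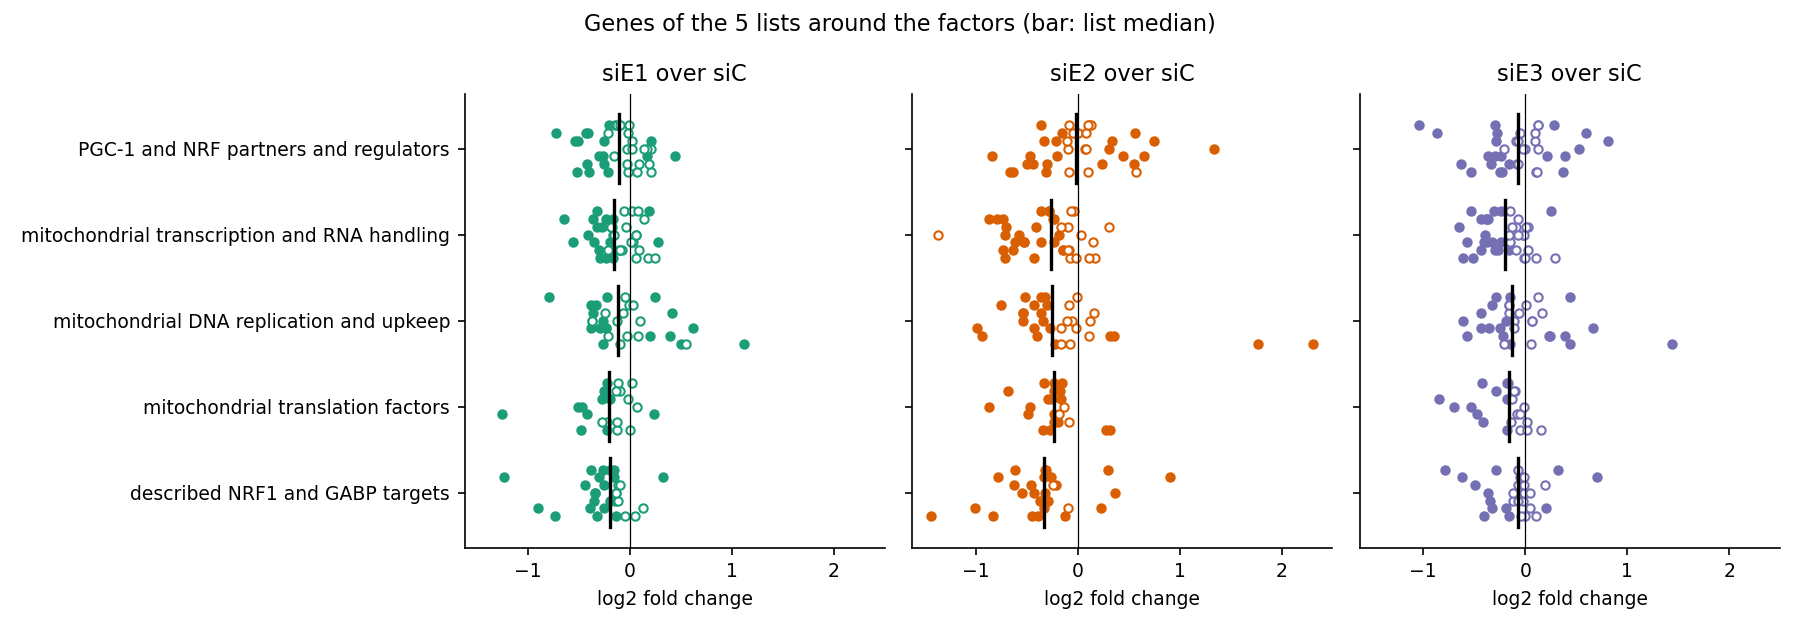
Log2 fold change of every tested gene of the 5 lists (rows) with siE1, siE2 and siE3 over siC (panels); filled points passed an adjusted p of 0.05, open points did not, and the black bar is the list median. Medians of the RNA handling, DNA upkeep and translation lists lie left of 0 in all 3 panels, and that of the described NRF1 and GABP targets is -0.20, -0.33 and -0.07 with siE1, siE2 and siE3.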

How the data were processed

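Per the submitters' processing notes, TopHat 1.3.3, HTSeq, DESeq and the genome build hg19 were used. Strand setting, annotation and filters: not given in the sources used here. Per the file headers, the deposited table holds raw counts per gene symbol for 8 libraries, with the authors' deposited fold (a linear ratio) and adjusted p-value for each siRNA against siC, which were used only where named.

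Groups came from the sample titles. Counts were filtered with filterByExpr of edgeR 4.0.16, scaled by TMM (factors 0.980 to 1.02) and fitted over all 8 libraries with a mean per group and 4 residual degrees of freedom (glmQLFit, glmQLFTest, checked on simulated counts), with Benjamini-Hochberg adjustment over 13395 genes and 0.05 as the threshold. Changes are on the log2 scale, the SE is the fold change divided by the root of F, and intervals cover 95%. Counts limit precision, and the depth of each library is given as its total count.

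The members and lists were chosen with earlier results of these data known. Named genes were the 10 members, ESRRA, up to 3 called genes with the smallest p in each direction of each list in the average, and the 3 nearest genes of the 3 most variable members. As alternatives, size factors of DESeq2 or plain library size replaced TMM, the filter was dropped or set to 1 CPM on average with 50 counts over all libraries, DESeq2 1.42.0 (Wald) or limma 3.58.1 (voom) gave the test, the fit held only the groups compared or a replicate block, and each library was left out. The sum of TFAM and TFAMP1 counts was added after the data had been seen. Work was done in R 4.3.3 and Python 3.11.15, with exons from GENCODE v29.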

Additional observations from a re-analysis of the deposited data

Results flagged for a closer look

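The differences below were flagged because effects of siRNAs with the same target were far apart, by at least 1 on the log2 scale or with calls in opposite directions against siC, in a test of the difference itself. TFB1M differed by -2.06 between siE1 and siE2 and by -2.01 between siE1 and siE3 (edgeR adjusted p = 7.5e-10 and 1.9e-09). PPARGC1B differed by 1.14 between siE1 and siE2 (edgeR adjusted p = 1.2e-06). PPARGC1A differed by -0.98 (-0.977 before rounding) between siE1 and siE2 and by -0.81 (-0.811) between siE1 and siE3 (edgeR adjusted p = 4.1e-05 and 4.0e-04). These PPARGC1A differences were flagged for calls in opposite directions against siC. Of those calls, the siE1 call was lost under 9 of 16 alternatives and the siE3 call under 7 of 16, while the siE2 call was kept under all 16. Groups of 2 libraries were too small for a search for libraries that stand apart.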

How the results depend on the processing

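Calls of PPRC1 with each siRNA, of TFB1M with siE1, of PPARGC1A, PPARGC1B, TFAM and TFB2M with siE2, and of GABPA and TFAM with siE3, all against siC, were kept under every alternative run. With siE1, 5 genes of the 10 were called, against 2 with the DESeq2 Wald test and 3 with the replicate block. In the average of the 3 siRNAs 6 were called, and the DESeq2 Wald test kept 4 of them. POLG with siE3 passed with DESeq2 size factors (edgeR adjusted p = 0.0465) and library size only (0.0469). For siE2 against siE3, 5 were called, against 3 with library size only. Leaving out 1 library gave 2 to 5 called with siE1, 5 to 8 with siE2, 3 to 6 with siE3, 3 to 7 in the average, 6 to 7 for siE1 against siE2, 3 to 5 for siE1 against siE3 and 2 to 5 for siE2 against siE3. The groups share replicate numbers, but no label says that a number marks a shared batch, and deviations of same-numbered libraries correlated at -0.18 to 0.11 over the 6 pairs of groups. The replicate block moved the number of genes called among all tested by less than 1.5 times; among the 10 it ended the calls of PPARGC1A with siE1 and siE3, TFAM with siE1, GABPA with siE2 and TFB2M for siE2 against siE3. Fitting only the groups compared is the reported fit for the average.

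Signs changed only for values that were not called in the reported fit. POLRMT with siE3 (-0.12), for siE1 against siE3 (0.12) and for siE2 against siE3 (-0.13) stood farther from 0 than the others. POLRMT with siE1 was at 0.0036 with library size only, 0.0092 with the stricter filter and 0.0040 with only the groups compared, and from -0.053 to 0.035 with a library left out. With a library left out, TFB2M with siE1 ran from -0.077 to 0.043, TFB1M from -0.043 to 0.087 with siE2, from -0.090 to 0.040 with siE3 and down to -0.019 for siE2 against siE3, and POLG with siE2 down to -0.011. POLRMT ran from -0.26 to 0.0025 with siE3, from -0.010 to 0.25 for siE1 against siE3 and from -0.26 to 0.0068 for siE2 against siE3, and PPRC1 from -0.023 to 0.13 for siE1 against siE3. NRF1 for siE1 against siE2 was at -0.0061 with library size only. Where a library was left out, the lone library was assumed to vary like the other groups. The cause of these moves was not tested.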
